A study of Mus musculus with 8 samples.

Results

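Of 8 striatal arrays, 4 carried a high level of parvalbumin mRNA and 4 a low one, and each set held 2 arrays labelled PGC-1α null and 2 labelled wild-type. The arrays were grouped by the measured value of the Pvalb probe in the authors' processed table: those above 200 intensity units form the Pvalb-high arrays (null 1, null 4, wild-type 1 and wild-type 2), and the others form the Pvalb-low arrays (null 2, null 3, wild-type 3 and wild-type 4). Both sets come from the same series of 8 mice, 4 labelled PGC-1α null and 4 labelled PGC-1α wild-type, all at postnatal day 30 and on a C57BL/6 background, with total striatal RNA hybridised to Illumina bead arrays, which read each transcript by the brightness of beads that carry a matching probe. The series title speaks of a deletion restricted to medium spiny neurons, whereas the sample labels name null mice and give no Cre driver or allele, so which cells lack the gene is not known here. The samples are whole striatum, although their cell type label reads medium spiny neurons, and nothing states how the animals were bred or whether tissue was pooled.

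Parvalbumin is a calcium-binding protein of fast-spiking GABAergic interneurons, which make up a small minority of striatal cells and give strong inhibition to medium spiny neurons. PGC-1α, encoded by Ppargc1a, is a transcriptional coactivator of mitochondrial and metabolic genes that works through nuclear receptors such as ERRα. In mouse brain it is enriched in parvalbumin interneurons, and mice that lack it are known for low parvalbumin expression. Comparison of the arrays by Pvalb level therefore asks which other transcripts varied with parvalbumin, whatever genotype the label gave.

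The Pvalb and Ppargc1a levels ran across the labels. Pvalb, represented by 1 probe, had processed intensities of 715.9 in null 1, 919.1 in null 4, 502.1 in wild-type 1 and 595.5 in wild-type 2, against 70.5 in null 2, 18.5 in null 3, 37.4 in wild-type 3 and 22.9 in wild-type 4. The lowest high array lay 7.12-fold above the highest low array, and no array lay close to the threshold of 200. After background correction and quantile normalization on the log2 scale (the scale of all values that follow), Pvalb averaged 9.41 ± 0.36 in Pvalb-high arrays and 5.64 ± 0.59 in Pvalb-low arrays (SD, n = 4 each), and it passed the detection threshold on all 8. These values chose the groups and are given as a description.

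Ppargc1a ran the opposite way to Pvalb. Its probe read 7.30 in null 1, 7.43 in null 4, 7.35 in wild-type 1 and 7.22 in wild-type 2, against 8.09 in null 2, 8.10 in null 3, 7.90 in wild-type 3 and 7.98 in wild-type 4. The 4 Pvalb-high arrays thus all lay below the 4 Pvalb-low arrays, with a difference of -0.69 (SE 0.07) and a gap between the groups wider than either group's range. The difference was -0.73 among arrays labelled null and -0.66 among arrays labelled wild-type. Between labels, Ppargc1a differed by 0.12 (SE 0.23, adjusted p = 0.937, limma, arrays labelled null minus arrays labelled wild-type), and Pvalb by 0.41 (SE 1.13, adjusted p = 0.955, limma). No source used here places the Ppargc1a probe relative to the deleted part of the gene, so its level does not check the labels. Every comparison that follows uses "labelled null" and "labelled wild-type" for this reason.

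**Figure D1:**
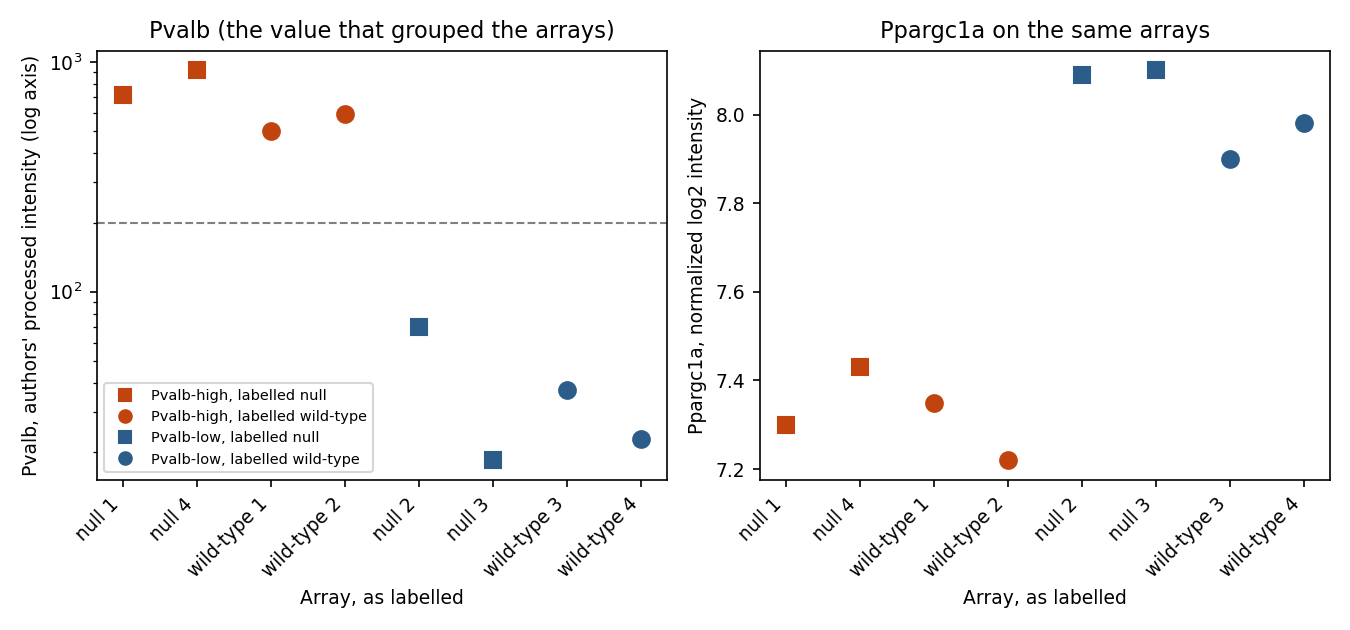
Pvalb (left, the authors' processed intensity on a log axis, with a dashed line at the threshold of 200) and Ppargc1a (right, normalized log2 intensity) on each of the 8 arrays, coloured by Pvalb group, with squares for arrays labelled null and circles for arrays labelled wild-type. Pvalb-high arrays sit at or above 502.1 for Pvalb and at or below 7.43 for Ppargc1a, where Pvalb-low arrays sit at or above 7.90.

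The starts of the genes for Pvalb, Ppargc1a and Cplx1 are shown as examples. Pvalb defined the groups, the coactivator gene Ppargc1a ran the other way, and Cplx1 is a synaptic gene picked because its groups were widely separated. Each sequence is 300 bases of RefSeq (GRCm38.p6) around the annotated start, most of it upstream, and all lie on the minus strand. Pvalb is at chr15:78206351-78206650 (the first of 2 starts in the table), Ppargc1a at chr5:51567676-51567975 and Cplx1 at chr5:108549978-108550277. Capitals mark TGACG on either strand, the core of the site that CREB-family factors bind, a motif chosen after the values were seen.
Pvalb: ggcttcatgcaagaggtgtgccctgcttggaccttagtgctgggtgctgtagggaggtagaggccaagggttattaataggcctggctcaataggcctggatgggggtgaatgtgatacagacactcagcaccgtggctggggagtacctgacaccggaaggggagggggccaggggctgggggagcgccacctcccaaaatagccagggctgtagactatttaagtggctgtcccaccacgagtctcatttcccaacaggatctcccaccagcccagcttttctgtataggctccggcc
Ppargc1a: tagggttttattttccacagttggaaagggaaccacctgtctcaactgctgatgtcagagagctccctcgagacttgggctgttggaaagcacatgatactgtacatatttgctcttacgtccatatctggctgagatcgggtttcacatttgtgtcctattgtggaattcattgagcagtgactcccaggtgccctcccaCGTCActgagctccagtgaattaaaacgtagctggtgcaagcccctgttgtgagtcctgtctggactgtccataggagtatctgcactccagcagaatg
Cplx1: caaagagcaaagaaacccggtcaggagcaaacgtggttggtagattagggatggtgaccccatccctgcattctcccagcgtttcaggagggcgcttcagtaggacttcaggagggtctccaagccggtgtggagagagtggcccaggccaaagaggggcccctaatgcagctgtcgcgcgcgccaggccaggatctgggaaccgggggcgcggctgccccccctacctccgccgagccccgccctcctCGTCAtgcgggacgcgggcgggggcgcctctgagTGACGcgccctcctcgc
TGACG stood 1 time in the Ppargc1a window and 2 times in the Cplx1 window. It was in 20.8% of all 32851 promoter windows of this length in the table, and in the windows of 4 of the 29 named genes found there, Cort, Cplx1, Lhx2 and Ppargc1a. AAGGTCA, the site of ERR receptors, was searched likewise on both strands and does not overlap TGACG. It was in 4.72% of all windows and in the window of 1 of those 29 genes, Atp5g3.

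Across the array, 25697 probes were read and 13413 (52.2%) were detected at p under 0.05 on at least 4 arrays. Mean raw intensity per array was 296.9 to 466.5 in Pvalb-high arrays and 295.1 to 499.3 in Pvalb-low arrays, and the arrays detected between 13009 and 13910 probes each. All 8 arrays were on 1 chip. Leaving Pvalb out, 545 of 13412 probes (4.06%) had no overlap between the Pvalb-high and Pvalb-low arrays, 317 higher and 228 lower in Pvalb-high arrays. The same count between the labels was 555 probes, or 4.14%, so the number of separated probes was no larger for the Pvalb grouping than for the labels. The median absolute difference of 0.114 was below the median standard error of 0.149. Because the groups were chosen by a measured value, differences between them are given with their standard errors and with no test.

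A small set of probes had larger differences. In all, 12 probes were at least 2-fold higher in Pvalb-high arrays without overlap (0.0895%), and 2 probes, both for Cort, were at least 2-fold lower without overlap (0.0149%). The 12 include probes detected on 0 Pvalb-low arrays, such as those for Ccl21a and Ccl21c, or on 1, such as that for Pdk4. Their differences are set wholly or mostly against undetected arrays. Without background correction the 12 became 1 and the 2 became 0. Whether overlap was allowed or not, 16 probes were 2-fold or more higher and 5 were 2-fold or more lower. With 1 probe per gene, 259 of 10007 genes (2.59%) were higher and 155 (1.55%) were lower in Pvalb-high arrays without overlap, and these shares are the background for the gene groups below. In bulk tissue, fewer cells of a type and less RNA per cell cannot be told apart, which applies to every gene group here.

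**Figure D2:**
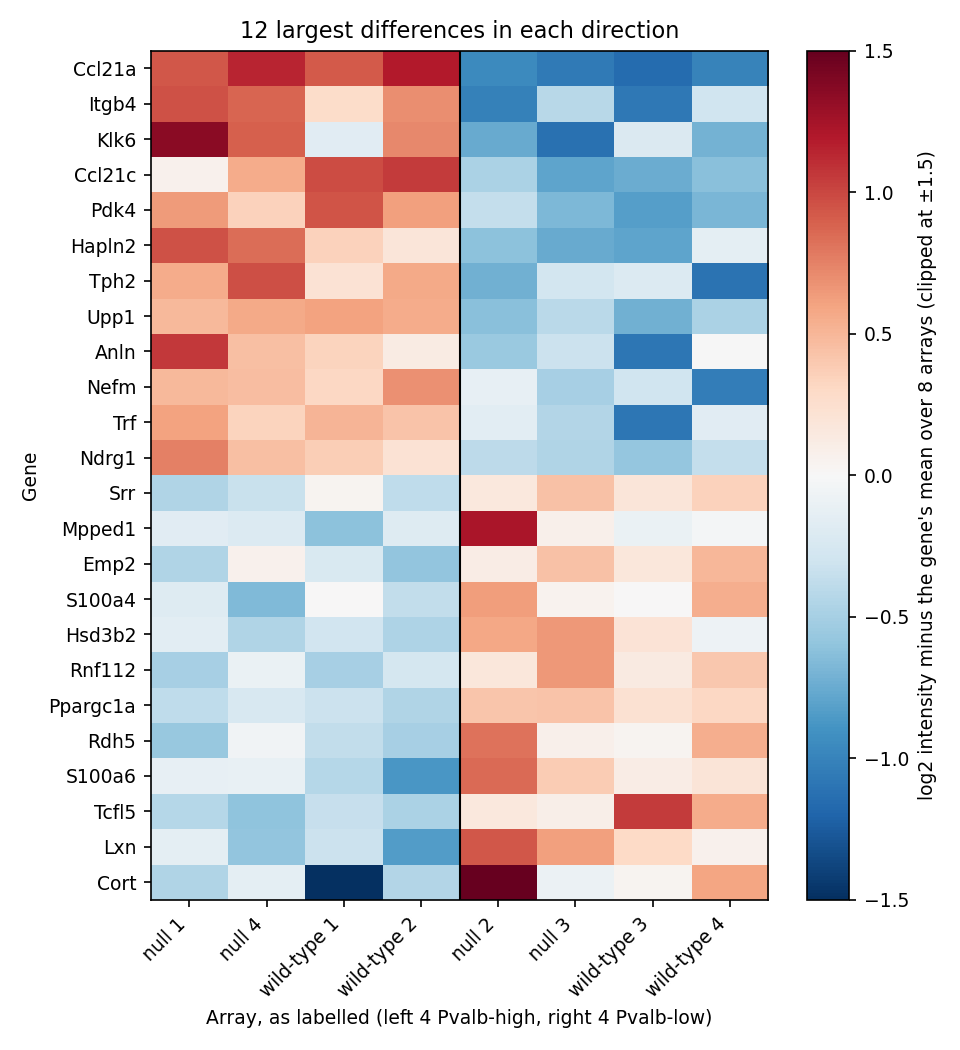
Deviation of each array from the 8-array mean (log2, shown up to 1.5 in either direction) for the 12 genes with the largest difference in each direction among those without overlap, Pvalb left out, Pvalb-high arrays left and Pvalb-low arrays right. Ccl21a and Ccl21c were not detected on Pvalb-low arrays and Tcfl5 was not detected on Pvalb-high arrays, so their colours there show no measured level. Of the other genes, the higher ones range from Itgb4, with a difference of 1.40, to Ndrg1, with 0.90, and the lower genes from Cort, with -1.45, to Srr, with -0.56.

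Genes used as markers of parvalbumin interneurons were mostly on the higher side. Of 14 measured, 4 (28.6%, against a background of 2.59%) were higher without overlap and none was lower without overlap, 13 differences were positive, and the median difference was 0.16 against 0.01 over all genes. The 4 include Vamp1, whose other probes overlapped. A median of this size was not particular to the group: cholinergic interneuron genes had 0.19 and mural and fibroblast genes 0.16, with no gene separated. The parvalbumin interneuron group and those below were chosen with earlier results of these data known, so their shares beside the background are a description only. Cplx1, which encodes complexin 1, a regulator of fast synaptic vesicle release, read 13.37 in null 1, 13.53 in null 4, 13.34 in wild-type 1 and 13.57 in wild-type 2, against 12.64 in null 2, 12.66 in null 3, 12.76 in wild-type 3 and 12.75 in wild-type 4. Its difference was 0.75 (SE 0.07), with 0.80 among arrays labelled null and 0.70 among arrays labelled wild-type, and the groups were far apart relative to the spread inside each. Cplx1 differed by -0.05 (SE 0.25) between labels (adjusted p = 0.974, limma).

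Cox6a2, the heart and muscle isoform of a cytochrome oxidase subunit that parvalbumin interneurons also express, read 8.37 in null 1, 7.94 in null 4, 8.03 in wild-type 1 and 8.11 in wild-type 2, against 7.44 in null 2, 7.41 in null 3, 7.51 in wild-type 3 and 7.22 in wild-type 4. It was higher by 0.72 (SE 0.11), and the difference was 0.73 among arrays labelled null and 0.71 among arrays labelled wild-type. Nefm, a neurofilament subunit of large-calibre axons, read 9.23, 9.21, 9.05 and 9.43 in null 1, null 4, wild-type 1 and wild-type 2, against 8.62, 8.24, 8.45 and 7.71 in null 2, null 3, wild-type 3 and wild-type 4, a difference of 0.97 (SE 0.21). Vamp1, a vesicle fusion protein of fast-spiking neurons, was higher by 0.59 (SE 0.13) on its brightest probe, but its other probes gave 0.18 and -0.28 with overlap, so its direction depended on the probe.

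The other measured members of that group had differences between -0.16 and 0.51 with overlap. Kcnab3, a potassium channel subunit, had the largest of these at 0.51 (SE 0.20), and Kcnc1, which encodes the Kv3.1 channel of fast-spiking cells, had 0.13. Tac1, a tachykinin precursor also made by direct pathway neurons, was the only member with a negative difference, at -0.16. Nefl, Syt2, Lhx6, Kcns3, Esrrg, Akr1c18 and Il1rapl2 were detected on 0 arrays, so several defining genes of the cell type could not be read. The mean deviation of the group ran from 0.07 to 0.30 in Pvalb-high arrays and from -0.25 to -0.09 in Pvalb-low arrays, without overlap.

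Fast skeletal muscle also makes parvalbumin, and its genes were examined as a possible other source of the transcript. Only 3 of 20 were measured, none was separated, and their median difference was -0.17. The 5 striatal markers examined, Ppp1r1b, Drd1a, Drd2, Adora2a and Rgs9, were detected on all 8 arrays, and the 23 measured genes of medium spiny neurons had a median difference of 0 with no gene separated. That group's mean deviation was lowest in null 2, at -0.44. Without null 2 the median was -0.16, with 4 of 23 differences positive and 2 genes lower without overlap, against 3.39% of all genes then lower. Without wild-type 3 the median was 0.10, with 18 of 23 positive and 0 separated, so the direction of this group depended on single arrays.

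Among Ppargc1a and its partners, Esrra was the only partner separated. Of 12 measured genes in this group, Esrra was higher (8.33%, against 2.59% of all genes) without overlap. Ppargc1a itself was lower (8.33%, against 1.55%) without overlap, and the median difference was 0. Esrra, which encodes ERRα, read 9.45 in null 1, 9.44 in null 4, 9.46 in wild-type 1 and 9.41 in wild-type 2, against 8.46 in null 2, 9.31 in null 3, 8.93 in wild-type 3 and 9.04 in wild-type 4. The Pvalb-high arrays were nearly equal and the Pvalb-low arrays were scattered below them, with a difference of 0.50 (SE 0.18). Without null 2 the Esrra difference was 0.34. Tfam and Nrf1, regulators of mitochondrial DNA and of nuclear respiratory genes, had differences of 0.12 and 0 with overlap, and Ppargc1b, the closest relative of Ppargc1a, had -0.12 with overlap.

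Respiratory chain subunits showed small positive differences. Of 49 measured, 38 were positive, with a median of 0.11, and 3 (6.12%) were higher without overlap: Cox5a by 0.33 (SE 0.10), Sdhc by 0.18 (SE 0.07) and Atp5g3 by 0.17 (SE 0.05). Without null 2, 7 of 49 were higher without overlap, against 4.1% of all genes, and without wild-type 3, 5 were, against 4.92%. No subunit was lower without overlap, and the most negative difference was -0.17, for Ndufa6. Cox7a1, a muscle-type cytochrome oxidase isoform outside that list and picked out after its values were seen, was higher by 0.86 (SE 0.15) without overlap. Pdk4, which restrains pyruvate entry into the citric acid cycle and is a known target of ERRα, read 6.12, 5.83, 6.43 and 6.11 in null 1, null 4, wild-type 1 and wild-type 2, against 5.13, 4.81, 4.66 and 4.81 in null 2, null 3, wild-type 3 and wild-type 4. Its difference was 1.27 (SE 0.16), and it was detected on 4 Pvalb-high arrays and on 1 Pvalb-low array.

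Oligodendrocyte genes were on the higher side. All 17 measured genes of myelinating oligodendrocytes had positive differences, with a median of 0.53, and 3 (17.6%) were higher without overlap. Trf, the iron carrier transferrin, read 11.06, 10.79, 10.97 and 10.89 in null 1, null 4, wild-type 1 and wild-type 2, against 10.30, 10.03, 9.38 and 10.30 in null 2, null 3, wild-type 3 and wild-type 4, a difference of 0.93 (SE 0.23). Ndrg1, a gene of myelinating glia, differed by 0.90 (SE 0.12), and Enpp2, which encodes the lysophospholipid-producing enzyme autotaxin, by 0.81 (SE 0.19). Mbp, the myelin basic protein gene, differed by 0.35 (SE 0.16) with overlap. Wild-type 3 had by far the lowest mean deviation of the group, -0.93, against -0.13 to 0.10 in the other Pvalb-low arrays and 0.15 to 0.40 in Pvalb-high arrays. Without wild-type 3, the median fell to 0.23 and 15 of 17 differences were positive.

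Itgb4, Klk6, Hapln2 and Anln belong to none of the lists, were named for the size of their differences and do not add to the count above. Itgb4, the β4 integrin subunit, read 9.09 in null 1, 9.0 in null 4, 8.40 in wild-type 1 and 8.83 in wild-type 2, against 7.12 in null 2, 7.71 in null 3, 7.05 in wild-type 3 and 7.83 in wild-type 4. It was higher by 1.40 (SE 0.25) with no overlap, and its second probe gave 1.01 without overlap. Klk6, a secreted protease of mature oligodendrocytes, differed by 1.40 (SE 0.37), with 2.06 among arrays labelled null and 0.74 among arrays labelled wild-type. Its groups were nearly level at their closest, with 5.43 in wild-type 1 and 5.39 in wild-type 3. Klk6 was detected on 4 Pvalb-high and 3 Pvalb-low arrays, and its difference was 0.47 without background correction. Hapln2, a link protein at nodes of Ranvier, differed by 1.16 (SE 0.24), and Anln, a septin-binding protein present in myelin, by 0.98 (SE 0.30).

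Choroid plexus and ependymal genes were mostly on the higher side. Of 9 measured, 2 were higher without overlap (22.2%), 8 differences were positive, and the median was 0.51. The separated members were Enpp2, which is also an oligodendrocyte gene, and 1500015O10Rik, now named Ecrg4, which differed by 1.08 (SE 0.29). Ttr, which encodes transthyretin, the most abundant transcript of the choroid plexus, read 6.14 in null 1, 13.10 in null 4, 11.27 in wild-type 1 and 11.28 in wild-type 2, against 5.68 in null 2, 6.83 in null 3, 9.72 in wild-type 3 and 9.22 in wild-type 4. Its groups overlapped, with a difference of 2.58 (SE 1.78). It was high on null 4 and all arrays labelled wild-type and low on the other arrays labelled null. Without null 2, wild-type 3 or wild-type 1 in turn, 2 to 3 genes of the group were separated, 7 to 8 differences were positive and the median was 0.36 to 0.52. Foxj1, a regulator of motile cilia in ependymal cells, had the only negative difference, at -0.33.

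**Figure D3:**
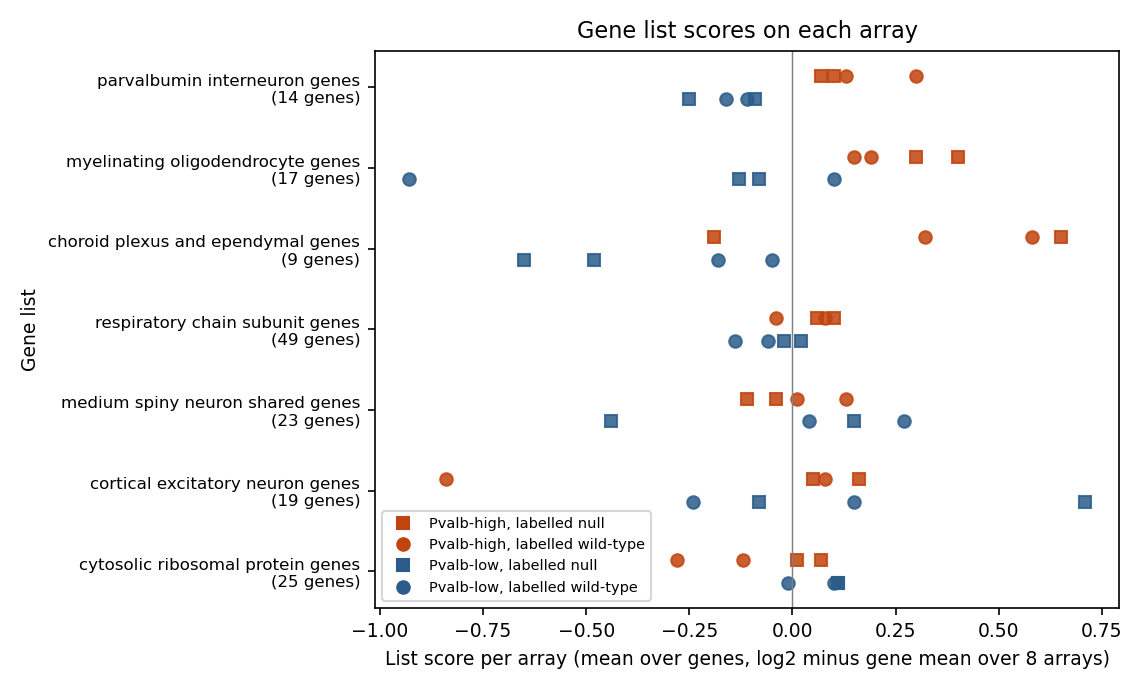
Mean deviation from the 8-array mean (log2) of 7 gene groups, 1 point per array, with Pvalb-high arrays (orange) above Pvalb-low arrays (blue), squares for arrays labelled null and circles for arrays labelled wild-type. Parvalbumin interneuron genes run from 0.07 to 0.30 in Pvalb-high arrays and from -0.25 to -0.09 in Pvalb-low arrays, while cortical excitatory neuron genes run from -0.84 to 0.16 in Pvalb-high arrays and from -0.24 to 0.71 in Pvalb-low arrays.

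Cortical excitatory neuron genes marked 2 arrays rather than the Pvalb groups. Of 19 measured, none was separated and 4 differences were positive, with a median of -0.19. The mean deviation of these genes was -0.84 in wild-type 1 and 0.71 in null 2. Slc17a7, the vesicular glutamate transporter of cortical projection neurons, read 4.97 in wild-type 1 and 8.53 to 8.89 in the other Pvalb-high arrays, against 10.46 in null 2 and 7.66 to 8.80 in the other Pvalb-low arrays. The part of cortical and choroid tissue in the differences above was not tested. Leaving out an array makes separation easier for all genes. Without null 2, 6 of 14 parvalbumin interneuron genes and 3 of 17 myelin genes were higher without overlap, against 4.1% of all genes. Of the 14 parvalbumin interneuron genes, 11 then had positive differences. Without wild-type 1 the counts of higher genes were 4 of 14 and 4 of 17, against 4.4% of all genes. In that setting 1 parvalbumin interneuron gene was lower without overlap, against 2.97% of all genes, and 12 of 14 differences were positive. Without wild-type 3 the counts of higher genes were 4 of 14 and 3 of 17, against 4.92%. There too, 12 of 14 parvalbumin interneuron genes had positive differences. These counts after leaving out an array were chosen after seeing the data.

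Astrocyte genes had no common direction, with 9 of 16 positive and a median of 0.01, but S100b, a calcium-binding protein of astrocytes and some oligodendrocytes, differed by 0.82 (SE 0.23) and Gjb6, the astrocyte gap junction protein connexin 30, by 0.51 (SE 0.14), both without overlap. Microglial genes had 12 of 16 positive differences with a median of 0.09 and no gene separated, and their mean deviation, like that of the parvalbumin and myelin genes, did not overlap (-0.01 to 0.12 in Pvalb-high arrays and -0.05 to -0.02 in Pvalb-low arrays). Genes of migrating neuroblasts and the olfactory bulb had 11 of 11 negative differences with a median of -0.10, and none was separated. Of 25 measured cytosolic ribosomal protein genes, 23 differences were negative, with a median of -0.13. Rplp1 was lower without overlap, with a difference of -0.19 (SE 0.08), which was -0.09 with cyclic loess and -0.1 with median centring. Without wild-type 3, 4 of the 25 were lower without overlap, against 2.97% of all genes.

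Among pallidal and septal genes, which come from a neighbouring region that is rich in parvalbumin neurons, 1 of 13 measured (Vamp1) was higher without overlap, 9 were positive and the median was 0.15. Among thalamic genes, Cplx1 was higher and Lhx2, a homeodomain regulator of forebrain development, was lower by 0.50 (SE 0.12) without overlap, with a median of 0.10 over 15. Among stress and glucocorticoid response genes, Sult1a1, a phenol sulfotransferase, was the only one of 13 separated, at 0.53 (SE 0.16). In the groups not described here, no measured gene was separated.

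Calcium-binding proteins were divided between the directions. Of 17 measured, S100b and S100a1 were higher without overlap and S100a6 and S100a4 were lower without overlap, with a median of -0.13 and 6 positive differences. Without null 2 the median was 0.03, with 10 of 17 positive, so the direction of the median rested on that array. S100a6, or calcyclin, averaged 7.69 ± 0.35 in Pvalb-high arrays and 8.46 ± 0.33 in Pvalb-low arrays (SD, n = 4 each), a difference of -0.77 (SE 0.24). S100a4 differed by -0.61 (SE 0.21) and was detected on 2 Pvalb-high and 4 Pvalb-low arrays. Calb2, the calretinin gene of another interneuron class, had -0.18 with overlap.

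The remaining transcripts with large positive differences came from no single group. Ccl21a, a chemokine that draws lymphocytes and dendritic cells to lymphoid tissue, read 6.39 in null 1, 6.61 in null 4, 6.38 in wild-type 1 and 6.65 in wild-type 2, against 4.50 in null 2, 4.40 in null 3, 4.31 in wild-type 3 and 4.46 in wild-type 4. It was detected on all Pvalb-high arrays and on 0 Pvalb-low arrays, so it is given as at least 3.14-fold higher. Such bounds set the mean of the bright group against the higher of the lowest detected signal and the dim probe's own signal on each array. Ccl21c, detected likewise on 0 Pvalb-low arrays, was at least 1.78-fold higher, and LOC100041504, annotated as a beta chemokine, at least 2.22-fold higher. Ccl21 genes are near-identical copies, so these probes may read the same transcripts and cannot be taken as separate genes.

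Upp1, a uridine phosphorylase of pyrimidine salvage, read 6.09 in null 1, 6.17 in null 4, 6.21 in wild-type 1 and 6.16 in wild-type 2, against 4.98 in null 2, 5.20 in null 3, 4.88 in wild-type 3 and 5.12 in wild-type 4. The spread inside each group was small beside the difference of 1.11 (SE 0.08), and 4 Pvalb-high and 3 Pvalb-low arrays detected it. Tph2, the serotonin-synthesising enzyme of raphe neurons, differed by 1.15 (SE 0.26), with 1.26 among arrays labelled null and 1.05 among arrays labelled wild-type.

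On the lower side, Cort, which encodes the interneuron neuropeptide cortistatin, read 6.36 in null 1, 6.67 in null 4, 4.97 in wild-type 1 and 6.38 in wild-type 2, against 9.17 in null 2, 6.73 in null 3, 6.85 in wild-type 3 and 7.41 in wild-type 4. The highest Pvalb-high array and the lowest Pvalb-low array were nearly level, and the difference of -1.45 (SE 0.68) was -0.90 without null 2. The arrays highest and lowest for Cort, null 2 and wild-type 1, were also the highest and lowest for cortical excitatory neuron genes. Its second probe gave -1.37 (SE 0.68).

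Lxn, or latexin, a carboxypeptidase inhibitor, read 9.78, 9.33, 9.60 and 9.09 in null 1, null 4, wild-type 1 and wild-type 2, against 10.85, 10.54, 10.22 and 9.98 in null 2, null 3, wild-type 3 and wild-type 4, a difference of -0.95 (SE 0.24). Tcfl5, a basic helix-loop-helix factor, was detected on 0 Pvalb-high arrays and on all Pvalb-low arrays, and was at least 1.5-fold higher in Pvalb-low arrays. Rdh5, a retinol dehydrogenase, differed by -0.74 (SE 0.22). Rnf112, a brain-enriched RING finger GTPase, differed by -0.68 (SE 0.15), with -0.71 among arrays labelled null and -0.65 among arrays labelled wild-type.

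Hsd3b2, named as a steroid dehydrogenase, differed by -0.68 (SE 0.19), while its second probe gave -0.39 with overlap. Emp2, a membrane protein, differed by -0.61 (SE 0.17), and Srr, the serine racemase that makes D-serine, by -0.56 (SE 0.13). Mpped1, a phosphodiesterase-like gene of cortex, differed by -0.59 (SE 0.33), and the value without null 2 was -0.28. Prosc, now named Plpbp, had 2 probes without overlap in opposite directions, -0.35 and 0.31, so it has no settled direction.

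Of the 20 measured genes nearest to Pvalb on chromosome 15 in RefSeq order, 1 was separated. It was Cdc42ep1, an effector of the Cdc42 GTPase, which was higher by 0.51 (SE 0.12). Over all genes, 2.59% were higher and 1.55% were lower without overlap, so 1 of 20 was near the share of all genes. The differences of these neighbours ran from -0.47 to 0.51. By chromosome, the share of genes without overlap ran from 2.15% on chromosome 8 to 6.06% on chromosome 16, leaving out the Y chromosome with 0 of 5.

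Whether the contrast recurred in arrays that share no sample was examined by taking the difference between Pvalb-high and Pvalb-low arrays inside each label. Across 13412 probes the differences among arrays labelled null and among arrays labelled wild-type had a Pearson r of 0.136 and a Spearman rho of 0.0728. Probes are not independent replicates, the 8 arrays were normalized together, and each difference rests on 2 arrays against 2. Same-sign probes made up 51.6% of all. Of 44 probes with a 2-fold difference and no overlap among arrays labelled null, 34 (77.3%) had the same sign among arrays labelled wild-type. Of 28 such probes among arrays labelled wild-type, 24 (85.7%) had the same sign among arrays labelled null. Both lists hold probes kept through detection on the Pvalb-high arrays alone, such as Ccl21a. Selection favours a higher reading of such probes inside either label, so these shares cannot be compared with the share of all probes.

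In all, 8 probes met the 2-fold criterion in both, which was 18.2% of the list from arrays labelled null and 28.6% of the list from arrays labelled wild-type. They were those for Ccl21a, LOC100041504, Itgb4, Pdk4, Tph2 and Upp1, which were higher in Pvalb-high arrays, and the pair for Cort, which were lower. Ccl21a and LOC100041504 were kept through detection on the Pvalb-high arrays alone, and Pdk4 was detected on 1 Pvalb-low array, so their 2-fold differences are set wholly or mostly against undetected arrays and do not count as recurrence. Tph2 and Upp1 were detected on 3 of 4 Pvalb-low arrays, and Itgb4 and Cort on all 8 arrays. Among arrays labelled null, the Cort difference rested on null 2, at 9.17, since null 3 read 6.73 against 6.36 and 6.67. Among arrays labelled wild-type, its lowest value was 4.97 in wild-type 1, with 6.38 in wild-type 2. Null 2 and wild-type 1 were also the extreme arrays for cortical excitatory neuron genes. The correlation ran from 0.0137 to 0.212 when single arrays were left out. Whole arrays of the same Pvalb group had a median pairwise correlation of 0.9852 and those of different groups 0.9837, against 0.9842 within a label and 0.9844 between labels.

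**Figure D4:**
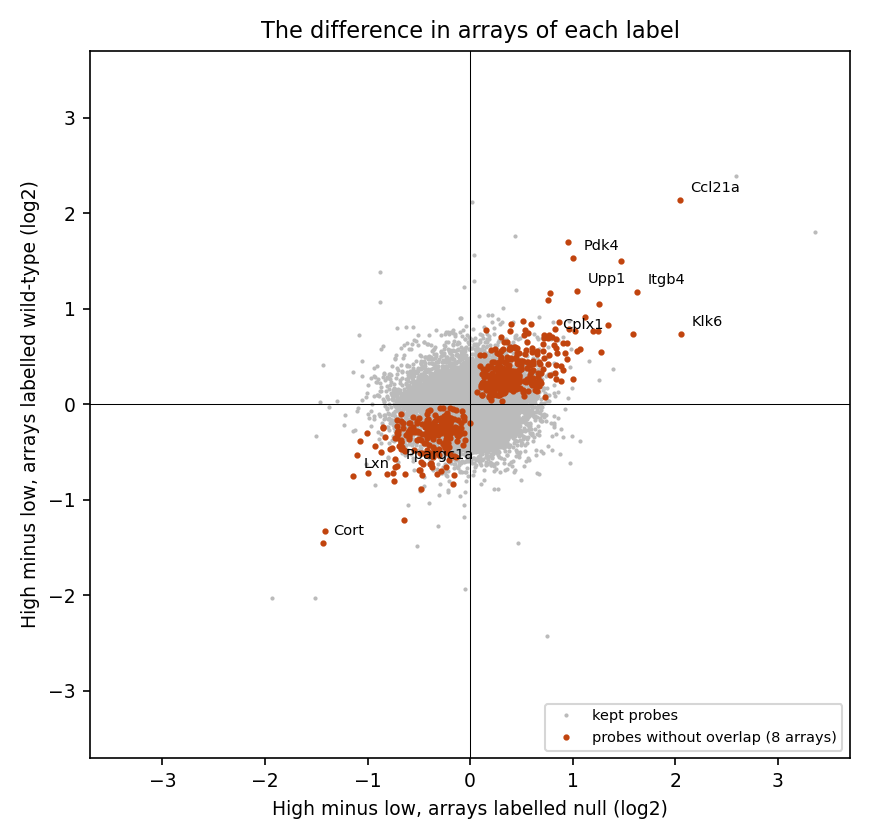
Difference between Pvalb-high and Pvalb-low arrays (log2) among arrays labelled null and among arrays labelled wild-type, 1 point per probe, with probes without overlap over all 8 arrays in orange and 9 genes named. Across probes r was 0.136, and the orange points lie where both differences have the same sign, by construction.

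The label contrast was tested with limma on all kept probes, and this contrast is balanced over the Pvalb groups. No probe passed an adjusted p of 0.05 between arrays labelled null and arrays labelled wild-type (0% of 13413), 926 probes had an unadjusted p under 0.05, and the smallest adjusted p was 0.592 (limma). With the Pvalb group as a block, 0 passed, 1007 had an unadjusted p under 0.05, and the smallest adjusted p was 0.581. The interaction, which asks whether the label contrast differed between Pvalb-high and Pvalb-low arrays, likewise gave 0 probes (0%), with 664 at an unadjusted p under 0.05 and a smallest adjusted p of 0.915 (limma). Nothing states whether the samples of a label came from separate litters or cages, so these p-values measure the spread between the 8 samples.

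Some sex-linked transcripts differed in number of arrays between the Pvalb groups. Eif2s3y, a Y-linked translation factor gene, read 9.48 in null 1, 9.40 in null 4, 4.35 in wild-type 1 and 9.14 in wild-type 2, against 9.29 in null 2, 4.41 in null 3, 4.32 in wild-type 3 and 4.40 in wild-type 4. Eif2s3y and Jarid1d, another Y-linked gene, were detected on 3 Pvalb-high arrays and 1 Pvalb-low array, and Xist, the transcript of the inactive X chromosome, was high on the other arrays. By label, those 2 Y-linked genes were detected on 3 arrays labelled null and 1 array labelled wild-type. The other Y-linked probes did not follow this pattern: Ddx3y was detected on all 8 arrays, at 9.64 to 11.24, and Uty on 4 Pvalb-high arrays and 2 Pvalb-low arrays, with 5.59 in wild-type 1. Both have close relatives on the X chromosome, and whether these probes read those transcripts too was not tested. With the Eif2s3y and Xist pattern as a block, an alternative added after seeing the data, Ppargc1a, Cplx1, Cox6a2 and Pdk4 kept their directions. These genes had no overlap, so the block could not reverse their directions and that outcome was fixed in advance. With the block, Cort and Mpped1 had differences of -2.36 and -1.01.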

How the data were processed

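Total RNA of 8 mouse striata was hybridised to Illumina bead arrays. The deposited raw file holds, per the file headers, the averaged bead intensity of each probe with its detection p-value. GenomeStudio is named in the submitters' processing notes, with no version. The deposited value table holds processed intensity on a linear scale with equal quantiles on all arrays, and no source used here states its background step. No columns were left unused (0).

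Pvalb groups came from the processed intensity (threshold 200). Raw intensities were background-corrected by normexp with detection p-values, offset by 16, quantile normalized and put on a log2 scale (neqc, limma 3.58.1, R 4.3.3). Probes detected at p under 0.05 on at least 4 arrays were kept. Depth is not defined for arrays, and the number of arrays limits the precision. Differences between Pvalb groups are means with a pooled standard error and no test. Label and interaction contrasts used limma with Benjamini-Hochberg adjustment (0.05). Recovery of planted differences was tested on simulated data for the label and the Pvalb groups. No interaction was planted, so recovery of an interaction was not tested.

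Genes have 1 probe, the brightest kept. Named genes were the 12 largest differences in each direction among separated genes, up to 3 separated members of each list, Pvalb, Ppargc1a, sex-linked genes, separated Pvalb neighbours, and genes with separated probes in opposite directions. The 31 lists held 584 distinct genes, of which 522 matched by symbol and 11 by synonym, and 386 were measured. Members and lists were chosen with earlier results of these data known; Cox7a1, Kcnab3, S100a1, Ttr, Mbp and Slc17a7 were picked after values were seen. Other list members are named as examples. Alternatives changed background correction, normalization, source table, detection filter, fold, probes per gene and the arrays included.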

Additional observations from a re-analysis of the deposited data

Results flagged for a closer look

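Among 94 sets of 4 arrays (the named probes in the Pvalb-high and in the Pvalb-low arrays), 11 had 1 array far from the other 3, where chance gives about 5%. Sex-linked genes account for 6 of them, and the flags of the other probes were near the share that chance gives. In Pvalb-high arrays, wild-type 1 stood apart for Eif2s3y, at 4.35, and for Xist, at 8.26, and wild-type 2 for Uty, at 5.30. In Pvalb-low arrays, null 2 stood apart for Eif2s3y, at 9.29, Jarid1d (now Kdm5d), at 6.39, and Xist, at 4.64.

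Mpped1 was set apart in both sets: in wild-type 1, at 8.17, against 8.58 to 8.62 in the other Pvalb-high arrays, and in null 2, at 10.02, against 8.69 to 8.86 in the other Pvalb-low arrays. A Prosc probe read 6.13 in wild-type 2, against 6.87 to 6.95 in the other Pvalb-high arrays. Atp5g3 read 13.71 in wild-type 3, against 13.65 to 13.66 in the other Pvalb-low arrays. Rplp1 read 15.17 in null 2, against 15.03 in each of the other Pvalb-low arrays. Quantile normalization gives probes of equal rank the same value, so such a gap among the brightest probes can be a small shift in rank.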

How the results depend on the processing

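The number of arrays and dim signal limit these results: without background correction, differences of dim probes shrank (Ccl21a to 0.69, Ppargc1a to -0.45). The 545 separated probes became 279 with median centring, 893 without the detection filter and 788 to 1115 when single arrays were left out, where fewer arrays make separation easier. The 12 probes 2-fold higher became 1 without background correction, 19 in the authors' processed values, 4 when detection on all 8 arrays was required, 1 at 4-fold and 11 to 15 when single arrays were left out. The 2 probes 2-fold lower became 0 without background correction, 1 with cyclic loess, 0 at 4-fold, 1 with 1 probe per gene and 2 to 4 when single arrays were left out. Label calls ran from 0 to 1 when single arrays were left out; the call, without null 4, was Ttr at -4.15 (SE 0.48, adjusted p = 0.0486, limma). The other settings of these counts stayed within 1.5 times the reported value. The correlation across probes, 0.136, was 0.0829 with median centring, 0.102 without the detection filter, 0.17 without background correction and 0.0137 to 0.212 when single arrays were left out. Replicate numbers did not pair the samples (correlations of same-numbered deviations 0.09, 0, 0.23 and 0.05), and the replicate block gave 0 label calls. Of 677 values of named probes under the alternatives, 651 moved by less than 1 SD between arrays and 26 moved by more. All 41 named probes without overlap held their sign under every alternative. Leaving out single arrays, changing the detection filter or adding the Eif2s3y and Xist block could not reverse the sign of a probe without overlap. For those settings the outcome was therefore fixed in advance. The median difference of all probes was between -0.021 (median centring) and 0.002 (the authors' processed values) under the scalings tried.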
